A study of Ostreococcus tauri with 84 samples.

Results

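Transcript levels of the unicellular marine green alga Ostreococcus tauri were compared between subjective day and subjective night in constant light (LL) after entrainment to short days (SD). The 8 libraries compared were chosen by their labelled regime and time alone: 4 of subjective day, taken 4 h and 8 h after subjective dawn (circadian times CT4 and CT8), and 4 of subjective night (CT16 and CT20). They are 8 of the 60 RNA-seq libraries in the table analysed, from a series of 84 samples. Of the 7668 genes in that table, 7426 averaged at least 1 FPKM (reads per gene, scaled by transcript length and by the size of the library) over these 8 libraries and were tested, and 242 did not.

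All cultures were the sequenced strain RCC4221 in photochemostats, vessels in which cells grow in continuous mode under programmed light. SD cultures were lit for 8 h a day and long-day (LD) cultures for 16 h, and LL followed each of these entrainments. Each LL time point has libraries numbered 4 and 5 in the labels, and the study's methods describe sampling on successive days, after a first day in LL that was not sampled, so both the day and the night libraries were collected in the light. The labels do not say that libraries of 1 hour came from separate cultures, so p-values measure only the spread between these libraries, which may be technical. The same hours were sampled in the SD cycle on 3 days (6 day and 6 night libraries, given by Zeitgeber time, ZT) and in LL after LD (4 and 4). An 8 h light phase ends at CT8, so CT8 is subjective dusk after SD, though compared here as day. A 16 h light phase ends at CT16, so CT16 is subjective night after SD and subjective dusk after LD. The ZT8 libraries of SD were taken just as the lights had gone off.

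A circadian clock is a loop of genes that keeps a period of about a day without external cues, and in O. tauri its best known parts are the Myb factor CCA1 and the pseudo-response regulator TOC1. Genes that the clock times go on cycling in constant light, whereas genes that follow light itself lose their daily change once the dark phase is removed. In green algae, carbon fixation, photorespiration and chlorophyll synthesis belong to the day, and DNA replication, cell division and much of nitrogen uptake have daily windows of their own.

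The 8 libraries were alike in total: FPKM sums were 984179 to 1092673, and 97 to 231 genes were listed at 0. FPKM hold no depth as such, and the spacing of low values put it at 5830000 to 11540000 reads per library, a rough estimate since 28.3% to 50.7% of low values lay within 0.02 of a whole read. Across all 12 libraries of LL after SD, Pearson r between libraries over 6751 genes with a mean of at least 10 FPKM was 0.921 to 0.986. The CT16 library of number 4 had the lowest median r with the others, 0.9463. Among number 5 libraries the median r between time points was 0.975, against 0.958 among number 4 libraries.

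In LL after SD, 16 genes (0.215% of those tested) passed limma's moderated test at an adjusted p under 0.05. Of these, 14 genes (0.189%) were higher by subjective day and 2 (0.0269%) by subjective night. The day genes included Rubisco activase (RCA), a serine hydroxymethyltransferase, a formate-tetrahydrofolate ligase, a threonine dehydratase and a malate/L-lactate dehydrogenase. The night genes were a sodium/solute symporter and a gene with no annotation. The median log2 difference over all genes was -0.0692, with 37.2% of genes above 0. That median depends on scaling: it was -0.0227 with upper-quartile and -0.00171 with median-of-ratios scaling. An unadjusted p under 0.05 was found for 816 genes (11%), 207 of them higher by day and 609 by night. These shares and counts, used below as the background of the gene lists, are given without such scaling. The day libraries lay wholly above the night libraries in 133 genes (1.79%), and the night libraries wholly above the day libraries in 351 (4.73%). Leaving out 1 library at a time gave 9 to 23 genes called, with 9 without CT20 number 4 and 10 without CT8 number 4. It was 13 without CT4 and CT16 of number 4, libraries that stood apart from the rest, and 1 without both CT8 libraries. With the sampling number as a block, 25 genes were called, 20 higher by day and 5 by night, among them all 16. Whichever library was left out, 8 of the 16 genes stayed called.

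**Figure D1:**
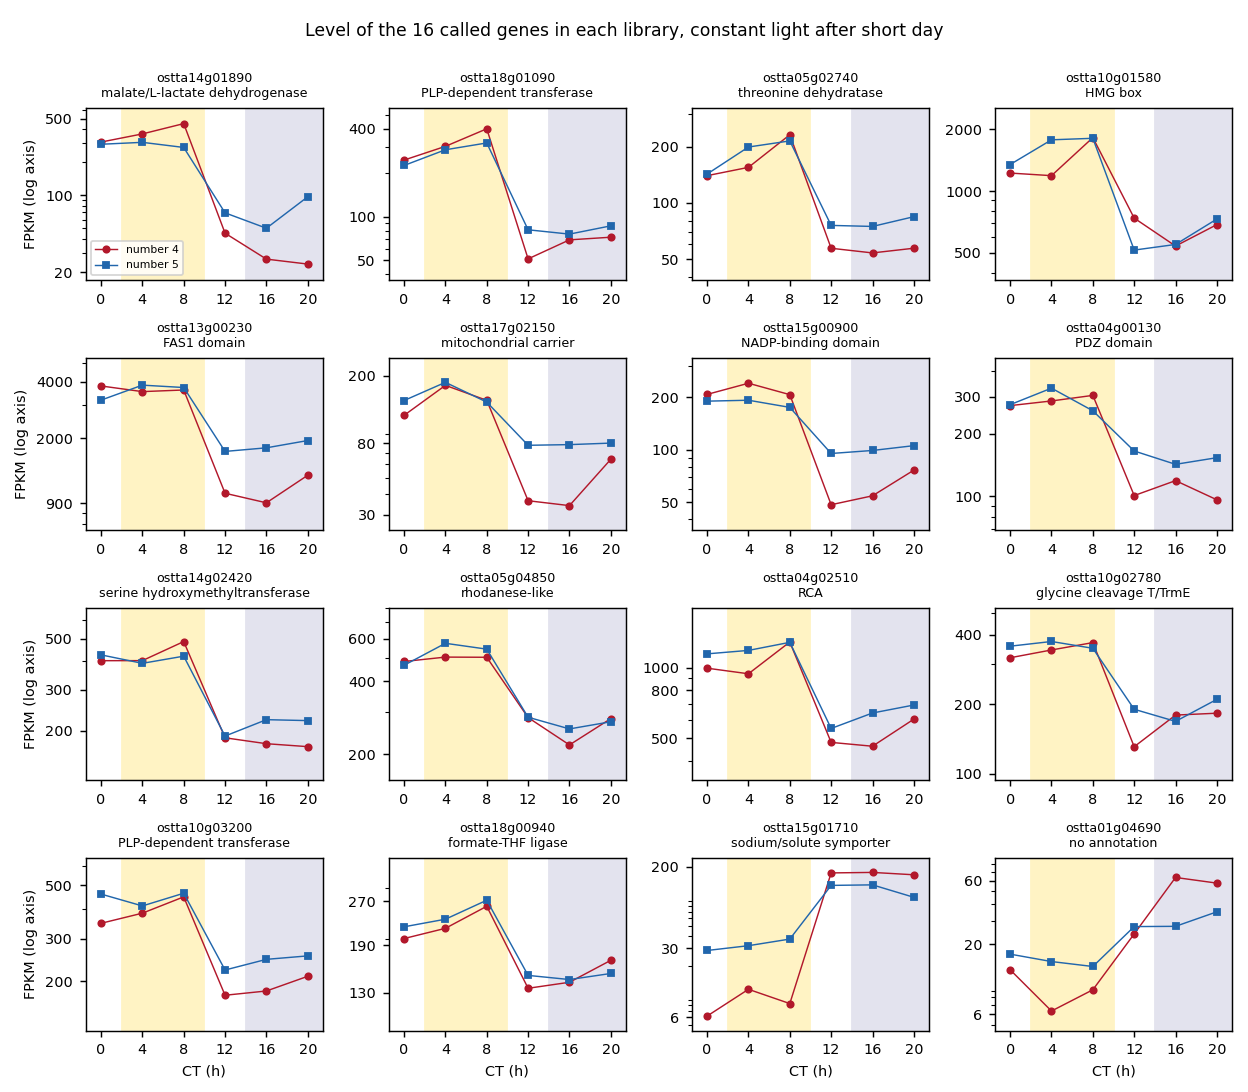
FPKM on a log axis against circadian time in h for the 16 called genes, with each point 1 library of LL after SD, circles for number 4 and squares for number 5. Yellow marks the hours compared as day and grey those compared as night; in all 14 day genes the CT0 libraries lay above the CT12 libraries, and in the symporter and ostta01g04690 below them.

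Values below are given in the order CT4 number 4, CT4 number 5, CT8 number 4 and CT8 number 5 for day, and CT16 number 4, CT16 number 5, CT20 number 4 and CT20 number 5 for night. Differences are day minus night in log2(FPKM + 1) with the standard error of the limma fit, and adjusted p-values are limma's over all genes tested. FPKM is a share of each library, so a change in total RNA per cell is not visible. The pseudocount of 1 makes differences of low genes smaller than their fold.

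Carbon fixation and one-carbon metabolism gave several of the day genes. RCA (ostta04g02510), the enzyme that frees Rubisco of inhibitory sugar phosphates, was at 943, 1186, 1289 and 1285 FPKM by day and 462, 641, 603 and 693 FPKM by night. The lowest day library was above the highest night library, and the 3 others were higher still. The mean was 1.96-fold higher by day, 1176 ± 162 against 600 ± 99.0 FPKM (SD, n = 4), a log2 difference of 0.97 ± 0.15 (limma, adjusted p = 0.023). RCA lost its call in 6 of the 8 fits that left out 1 library (without CT4 number 5, CT8 number 4, CT8 number 5, CT16 number 4, CT16 number 5 or CT20 number 4), with adjusted p up to 0.10.

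Serine hydroxymethyltransferase, which interconverts serine and glycine and passes a carbon to tetrahydrofolate, was represented among the day genes by ostta14g02420. It was at 402, 391, 486 and 420 FPKM by day and 176, 223, 171 and 221 FPKM by night. Each night library was well below each day library, and the difference was 1.11 ± 0.13 (limma, adjusted p = 0.0034). The ligase that charges tetrahydrofolate with formate, ostta18g00940, was at 217, 234, 259 and 272 FPKM by day and 141, 145, 168 and 152 FPKM by night. These groups also did not overlap, but its difference was the smallest of the 16, 0.69 ± 0.12 (limma, adjusted p = 0.046), and leaving out any 1 of the 8 libraries ended its call (adjusted p up to 0.17).

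The gene ostta10g02780 carries a domain that the tRNA-modifying GTPase TrmE shares with the T protein of the glycine cleavage system, which breaks down glycine in mitochondria. It was at 344, 374, 370 and 350 FPKM by day and 179, 168, 183 and 210 FPKM by night. The spread within each group was small beside the gap, and the difference was 0.96 ± 0.11 (limma, adjusted p = 0.0034).

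A list of 14 genes annotated with glycine, serine and folate-bound carbon steps was drawn up after these values were seen. Of its members, 3 were called higher by day, the genes just described, around which the list was drawn, and none by night (14 of all 7426 genes, 0.189%, were called higher by day), and the median of the list was 0.17 against -0.0692 over all genes. The H protein of glycine cleavage, ostta15g02900, was not called: it was at 775, 914, 804 and 766 FPKM by day and 376, 544, 398 and 555 FPKM by night, without overlap (0.82 ± 0.15, limma, adjusted p = 0.060). The other 2 serine hydroxymethyltransferase genes had differences of -0.04 (ostta03g00920) and -0.44 (ostta19g00170), and neither was called (limma, adjusted p = 0.96 and 0.24). The annotated serine hydroxymethyltransferases therefore had differences of either sign.

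Several of the called day genes encode enzymes of amino and organic acids. The malate/L-lactate dehydrogenase ostta14g01890, of a family that oxidises hydroxy acids with NAD or NADP, was at 363, 304, 450 and 273 FPKM by day and 26.3, 50.3, 23.7 and 97.2 FPKM by night. The highest night library, CT20 of number 5, was far below the lowest day library. The mean was 7.04-fold higher by day and the log2 difference was 2.99 ± 0.36 (limma, adjusted p = 0.0034). Within number 4 it was 3.96, and within number 5 it was 2.03.

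The pyridoxal phosphate-dependent transferase ostta18g01090, of a family that moves or removes amino groups with vitamin B6 as cofactor, was at 304, 288, 401 and 320 FPKM by day and 69.1, 75.7, 72.0 and 86.2 FPKM by night. The 4 night libraries lay close together, far below every day library. Its difference was 2.09 ± 0.14 (limma, adjusted p = 2.7e-05), the smallest adjusted p of the comparison, and it was called in all 24 alternative fits. Another pyridoxal phosphate-dependent transferase, ostta10g03200, annotated with another subdomain of the same fold, was at 383, 410, 447 and 463 FPKM by day and 182, 247, 210 and 255 FPKM by night. These groups did not overlap either (0.94 ± 0.13, limma, adjusted p = 0.013), but the call was lost without CT8 number 4, CT8 number 5 or CT20 number 4 (adjusted p up to 0.066).

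Threonine dehydratase (ostta05g02740, annotated as catabolic), which deaminates threonine to a keto acid with the same cofactor, was at 155, 200, 232 and 215 FPKM by day and 53.9, 74.8, 57.1 and 84.4 FPKM by night. All day libraries lay above all night libraries, with number 4 below number 5 in both night hours. The difference was 1.57 ± 0.18 (limma, adjusted p = 0.0034).

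The other day genes carry domains of broad function. An HMG box gene (ostta10g01580, a DNA-bending domain of chromatin proteins) was at 1188, 1775, 1819 and 1805 FPKM by day and 540, 550, 687 and 731 FPKM by night. The CT4 library of number 4 stood apart from the other day libraries and was still above every night library. Its difference was 1.38 ± 0.17 (limma, adjusted p = 0.0034).

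The FAS1 domain gene ostta13g00230, a domain of secreted and cell surface proteins, had the highest level of the 16. It was at 3537, 3829, 3608 and 3719 FPKM by day and 905, 1776, 1269 and 1942 FPKM by night. The day libraries agreed closely, whereas by night number 4 was below number 5 at both hours. The difference was 1.38 ± 0.21 (limma, adjusted p = 0.017), and the call was lost without CT4 number 4, CT4 number 5, CT8 number 4, CT8 number 5 or CT20 number 4 (adjusted p up to 0.082).

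A mitochondrial carrier gene (ostta17g02150, of the family that moves metabolites across the inner mitochondrial membrane) was at 176, 183, 143 and 140 FPKM by day and 34.1, 78.3, 64.1 and 80.0 FPKM by night. Its groups did not overlap, and CT16 of number 4 was the lowest library (1.37 ± 0.24, limma, adjusted p = 0.046). The NADP-binding domain gene ostta15g00900 was at 240, 192, 207 and 175 FPKM by day and 54.6, 99.1, 76.5 and 106 FPKM by night. Here number 4 was above number 5 at both day hours and below it at both night hours, and the difference was 1.30 ± 0.20 (limma, adjusted p = 0.017). The carrier was called in 2 of the 8 fits that left out 1 library (without CT16 number 4 or CT20 number 5) and the NADP-binding gene in 4 (without CT8 number 5, CT16 number 4, CT16 number 5 or CT20 number 5), with adjusted p up to 0.14 and 0.089.

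The last 2 day genes were stable to such omissions. A PDZ domain gene (ostta04g00130, a domain that binds the ends of other proteins) was at 287, 330, 305 and 257 FPKM by day and 119, 142, 96.3 and 153 FPKM by night, a difference of 1.22 ± 0.16 (limma, adjusted p = 0.0052). A rhodanese-like gene (ostta05g04850, a sulphur transfer domain) was at 504, 574, 503 and 543 FPKM by day and 219, 255, 281 and 273 FPKM by night, a difference of 1.05 ± 0.12 (limma, adjusted p = 0.0034). Neither gene's groups overlapped.

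The sodium/solute symporter ostta15g01710, of a family that uses the sodium gradient to import small solutes, was the night gene with the largest difference. It was at 11.5, 31.8, 8.28 and 37.1 FPKM by day and 175, 131, 166 and 98.2 FPKM by night. By day number 4 was below number 5 and by night above it, and the groups were far apart in both numbers. The mean was 6.42-fold higher by night, and the log2 difference was -2.84 ± 0.40 (limma, adjusted p = 0.012), -3.99 within number 4 and -1.69 within number 5. Without CT20 of number 4 its adjusted p was 0.054.

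The other night gene, ostta01g04690, has no annotation and was named after its values were seen. It was at 6.32, 14.8, 9.12 and 13.6 FPKM by day and 63.2, 27.2, 57.4 and 35.0 FPKM by night. The number 4 libraries were the lowest by day and the highest by night. The difference was -1.95 ± 0.30 (limma, adjusted p = 0.021), and its call was lost without CT4 number 4, CT8 number 4, CT16 number 4 or CT20 number 4 (adjusted p up to 0.10).

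Genes that bring nitrogen into the cell had some of the largest night values without passing the test. The ammonium transporter ostta20g00200 was at 272, 557, 232 and 614 FPKM by day and 1867, 1078, 1636 and 810 FPKM by night. The groups did not overlap, yet the night-to-day gap was far wider in number 4 (-2.80) than in number 5 (-0.68), and the difference of -1.74 ± 0.34 had an adjusted p of 0.080 (limma). The nitrate transporter NRT2 (ostta10g00950) was at 216, 348, 165 and 423 FPKM by day and 1622, 838, 1485 and 480 FPKM by night. Its highest day library and its lowest night library, both of number 5, were close, and the difference was -1.88 ± 0.38 (limma, adjusted p = 0.094).

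NRT2 stands beside NRT3, nitrite reductase (NIR) and nitrate reductase (NR) as 4 consecutive genes of chromosome 10 in the RefSeq gene order. NRT3 (ostta10g00940), the partner protein of NRT2, was at 1436, 2744, 1227 and 2790 FPKM by day and 5242, 3672, 4674 and 2964 FPKM by night, without overlap (-1.08 ± 0.28, limma, adjusted p = 0.23). NR (ostta10g00920), which reduces nitrate to nitrite, was at 69.0, 142, 72.1 and 188 FPKM by day and 427, 266, 371 and 173 FPKM by night. In NR the CT8 day library of number 5 was above the CT20 night library of number 5, and the difference was -1.44 ± 0.34 (limma, adjusted p = 0.18).

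NIR (ostta10g00930), which reduces nitrite to ammonium, was at 117, 206, 105 and 289 FPKM by day and 482, 342, 381 and 218 FPKM by night. Its number 5 libraries overlapped in the same way as those of NR (-1.05 ± 0.31, limma, adjusted p = 0.25). Glutamine synthetase (GS, ostta01g05020) and glutamate synthase (GOGAT, ostta14g01900), which build ammonium into amino acids, had differences of -0.20 ± 0.18 and 0.15 ± 0.14, with overlapping groups. Of the 6 genes of the nitrate assimilation list none was called. An unadjusted p under 0.05 was found for 4, all higher by night, against 609 of all 7426 genes. The list's median was -1.07, -1.92 within number 4 and -0.21 within number 5. For the same list it was -0.66 in SD and had the other sign in LL after LD, 0.44, with no member called there. The values of NRT3, NIR, GS and GOGAT are given outside the rule for named genes, after they were seen.

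**Figure D2:**
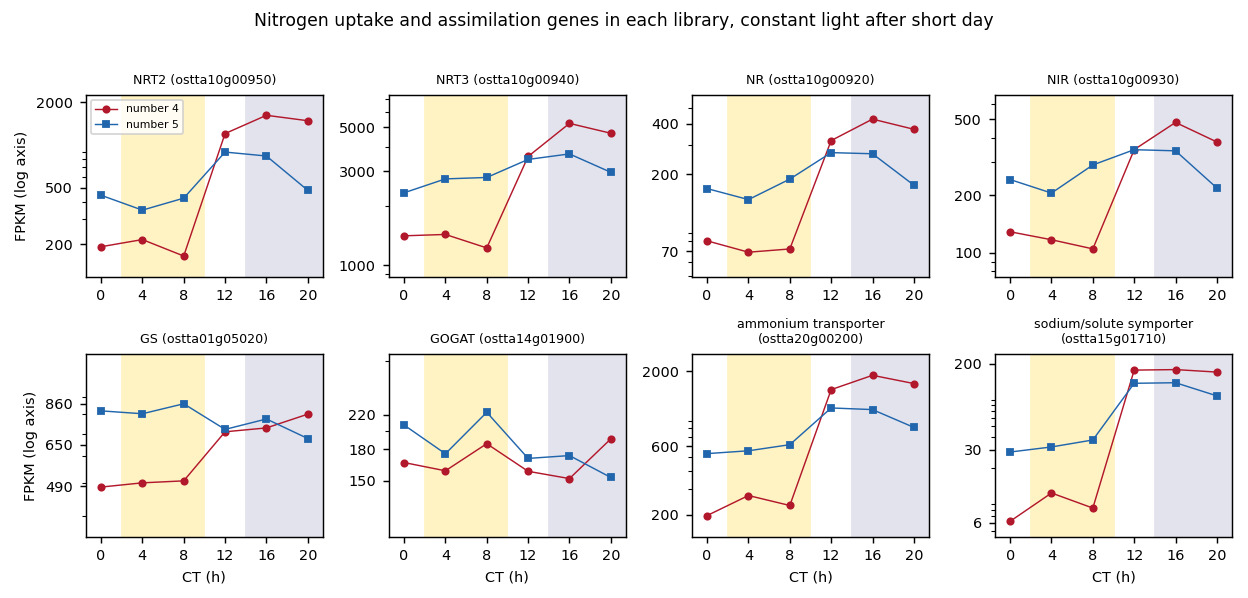
FPKM on a log axis against circadian time in h for NRT2, NRT3, NR, NIR, GS, GOGAT, the ammonium transporter and the sodium/solute symporter, with each point 1 library of LL after SD, circles for number 4 and squares for number 5. In number 4, NRT2 went from 165 FPKM at CT8 to 1205 at CT12, and in number 5 from 423 to 893; GS and GOGAT overlapped between day and night.

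Other genes with high unadjusted ranks by night were also not called. A gene of the telomerase ribonucleoprotein annotation (ostta04g03490) was at 10.7, 11.1, 9.65 and 10.8 FPKM by day and 29.3, 22.7, 21.0 and 16.5 FPKM by night (-0.99 ± 0.19, limma, adjusted p = 0.080). The core histone genes ostta11g02150 and ostta05g03770, which encode proteins that package DNA, had differences of -1.11 ± 0.22 and -1.20 ± 0.25 (limma, adjusted p = 0.089 and 0.10) at levels of 4.04 to 30.6 FPKM. The other 5 were a P-loop NTPase gene (ostta08g01900, -0.87), a beta-lactamase-like gene (ostta03g01000, -1.25), a phosphotyrosyl phosphatase activator (ostta02g01070, -0.77), a dimeric alpha-beta barrel gene (ostta04g00290, -0.92) and an ENTH/VHS domain gene (ostta02g05210, -0.58). In all 8 of these genes the night libraries lay above the day libraries, which was the criterion for naming them.

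The CT0 and CT12 libraries, 2 each, took no part in this comparison. In all 14 day genes both CT0 libraries were above both CT12 libraries, against 15.1% of all genes tested. In both night genes both CT0 libraries were below both CT12 libraries, against 17.5% of all genes. In the 14 day genes the CT0 libraries were also above every night library and the CT12 libraries below every day library, so the drop fell between CT8 and CT12. The median CT0 minus CT12 difference of the 14 was 1.09 on the log2 scale, from 0.56 to 2.39. These libraries carry the same sampling numbers as the others.

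The highest of the 6 time point means came at CT8 in 9 of the 14 day genes and at CT4 in the other 5. The lowest came at CT12 in 7, at CT16 in 6 and at CT20 in 1. In the SD cycle the highest mean of the same genes came at ZT4 in 9 and at ZT0 in 5, which were RCA, the rhodanese-like gene ostta05g04850, the HMG box gene ostta10g01580, the FAS1 gene ostta13g00230 and the dehydrogenase ostta14g01890. The lowest SD mean came at ZT12 in 12 genes and at ZT16 in 2. In LL after LD the highest mean came at CT8 in 12, at CT12 in 1 and at CT16 in 1. The lowest there came at CT16 in 7, at CT12 in 3, at CT0 in 3 and at CT4 in 1. These counts were made after the values were seen and carry no test.

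None of the 8 clock and photoreceptor genes was called in LL after SD, where 0.215% of all genes were. By the unadjusted limma p only the histidine kinase HK was under 0.05, against 11% of all genes. The comparison leaves out CT0 and CT12, so it does not test whether these genes cycled. CCA1 (ostta06g02340) was at 384, 310, 328 and 375 FPKM by day and 678, 332, 321 and 270 FPKM by night. The CT16 library of number 4 stood highest and the groups overlapped (-0.10 ± 0.24, exact permutation test, two-sided, p = 0.886). TOC1 (ostta13g01820) was at 496, 533, 504 and 568 FPKM by day and 803, 416, 496 and 370 FPKM by night. TOC1 overlapped in the same manner, again with CT16 of number 4 the highest (0.08 ± 0.20, exact permutation test, two-sided, p = 0.829).

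HK (ostta09g02190), of the kinase family that senses signals and passes a phosphate on, was at 44.5, 30.8, 42.0 and 40.7 FPKM by day and 28.5, 27.3, 36.7 and 22.5 FPKM by night. Only its CT20 library of number 4 overlapped the day range (0.45 ± 0.18, exact permutation test, two-sided, p = 0.0571). The cryptochrome CRY1 (ostta15g01000), a blue light receptor, was at 14.0, 11.8, 18.0 and 11.8 FPKM by day and 7.03, 10.1, 13.3 and 8.30 FPKM by night (0.49 ± 0.23, exact permutation test, two-sided, p = 0.0857). CRY3, the photolyase UVR2 and the CPP family genes ostta20g00800 and ostta09g04220 had exact p of 0.4 to 0.914, differences of -0.18 to 0.22 and overlapping groups. Over the 8 genes the Benjamini-Hochberg adjusted exact p was 0.343 to 0.914, and with 4 against 4 libraries the exact test cannot go below 0.029.

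Of the 20 Calvin cycle genes, RCA alone was called, and 10 had an unadjusted p under 0.05, all higher by day, against 207 of all 7426 genes. The day libraries lay wholly above the night libraries in 8 of the 20, against 1.79% of all genes. A positive difference was found in 17, against 37.2% of all genes. The list's median was 0.33, with 0.48 within number 4 and 0.14 within number 5, beside -0.0692 over all genes. Chlorophyll synthesis genes had none called, 15 of 16 positive and a median of 0.20.

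The lists of the light reactions and the antenna had medians just above 0. No photosynthetic light reaction gene (0 of 30) and no chlorophyll a/b-binding protein gene (0 of 24) was called, and the medians were 0.12 and 0.11. An unadjusted p under 0.05 was found for 2 of each list, all higher by day, against 207 of all 7426 genes. Single genes ranged from -1.125 to 2.553 in the first list and from -0.16 to 0.39 in the second. Members of a gene family may share reads, and how such reads were split is not given in the sources used here. The photosystem II subunits PsbP (ostta01g03170) and PsbR (ostta05g04560) had differences of 0.70 ± 0.29 and 0.25 ± 0.14 with overlapping groups (limma, adjusted p = 0.40 and 0.54).

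Gene lists of cell growth and division had medians below 0 with no member called, where 4661 of all 7426 genes were below 0 and the median was -0.0692. Core histones (14 genes) had 13 negative and 8 with an unadjusted p under 0.05, all higher by night, against 609 of all 7426 genes. The median of the histones was -0.51, with -0.36 within number 4 and -0.65 within number 5. The night libraries lay wholly above the day libraries in 4 of them, against 4.73% of all genes. Chromosome segregation genes had 16 of 17 negative and a median of -0.29, with -0.07 within number 4 and -0.39 within number 5. S phase genes had 29 of 35 negative and a median of -0.16, which was -0.09 with median-of-ratios scaling, when that of all genes was -0.00171. The replication helicase gene MCM4.2 (ostta11g01760) had a difference of -0.61 ± 0.20, the cyclin CYCB (ostta01g06150) -0.34 ± 0.12 and the kinase CDKB (ostta15g00670) -0.31 ± 0.12, none of them called (limma, adjusted p = 0.31, 0.33 and 0.37).

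Ribosome assembly genes, which process the RNA of new ribosomes, had 30 of 31 negative. Of these, 11 had an unadjusted p under 0.05, against 609 of all 7426 genes higher by night. The list's median was -0.37, but it was -0.78 within number 4 and 0.02 within number 5. The 98 ribosomal protein genes had the same split, -0.36 within number 4 and 0.14 within number 5, with a median of -0.11. UTP11 (ostta06g01560), a subunit of the small-subunit processome, was at 37.3, 55.9, 45.7 and 61.8 FPKM by day and 75.4, 66.7, 82.0 and 58.0 FPKM by night, so that only the number 5 libraries overlapped across groups (-0.50 ± 0.18, limma, adjusted p = 0.33). The remaining 13 lists fixed for this comparison had medians of -0.11 to 0.13 and no gene called. Among them the signs of the heat shock, starch and sugar, respiratory chain, transcription factor and miscellaneous lists changed with the scaling of the libraries.

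**Figure D3:**
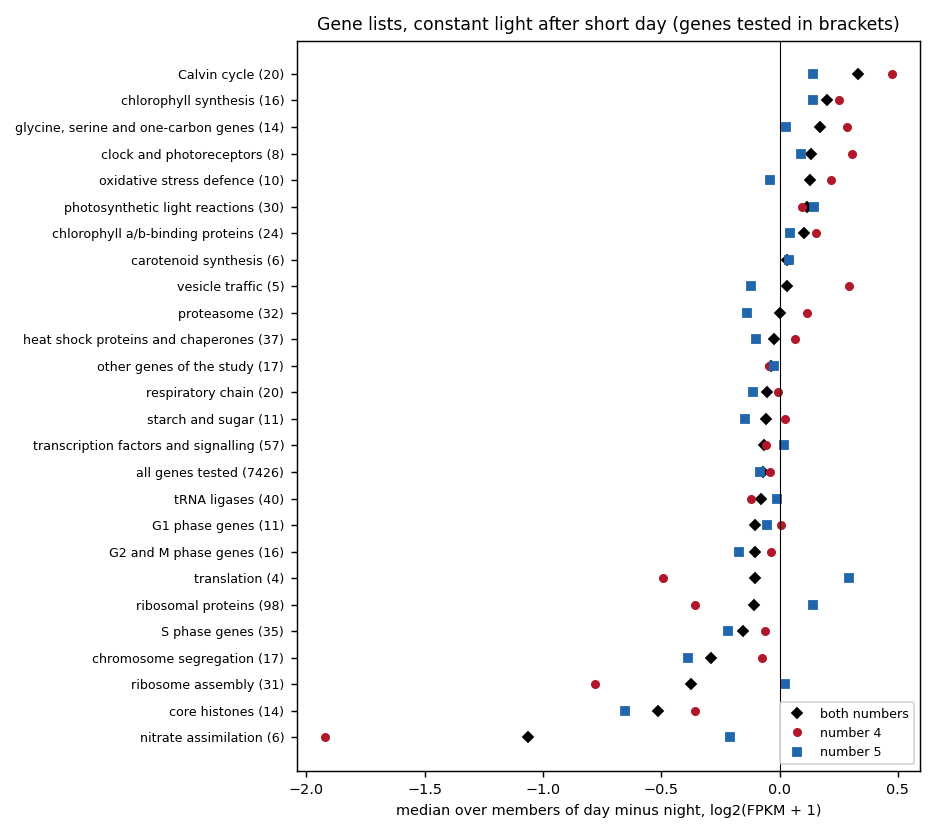
Median over the tested genes of each list of the day minus night difference in log2(FPKM + 1), with diamonds for both numbers, circles for number 4 alone and squares for number 5 alone, and the number of genes in brackets. The nitrate assimilation list lies lowest, at -1.07, and the Calvin cycle list highest, at 0.33; nitrate assimilation and ribosome assembly differ most between numbers.

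The day-night differences were not equal in the 2 sampling numbers. The median size of the difference over all genes was 0.25 within number 4 and 0.16 within number 5, and it was larger in number 4 for 64% of genes. The 16 called genes had the same sign in both numbers in 16 of 16, against 53.2% of all genes, with the larger difference in number 4 in 13. Since these genes were called from both numbers together, that agreement is a description and not a test.

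Between the numbers themselves, with day or night held in the model, 5 genes (0.0673%) were called by limma, 3 higher in number 5 (0.0404%) and 2 in number 4 (0.0269%), and 1122 had an unadjusted p under 0.05. These genes were named after their values were seen. The cold-shock domain gene ostta08g00865, a nucleic acid-binding domain, was at 63.6 to 124 FPKM in number 4 and 219 to 255 FPKM in number 5 (1.38 ± 0.17, adjusted p = 0.014). DEL (ostta08g02940), of an E2F-related family of cell cycle regulators, was at 219 to 320 FPKM in number 4 and 92.9 to 148 FPKM in number 5 (-1.08 ± 0.12, adjusted p = 0.012). The other 3 have no annotation (ostta12g01400, ostta08g03890 and ostta03g04500), and none of the 5 was called between day and night. The count was 0 without CT4 number 5, without CT8 number 4 and without CT20 number 5, and 19 without CT20 number 4.

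In the SD cycle itself, where day and night differ in light, the same hours gave far more calls. Of 7459 genes tested, limma called 1730 (23.2%), 427 higher by day (5.72%) and 1303 by night (17.5%), with an all-gene median of -0.29. This split depends on scaling: with median-of-ratios scaling it was 720 and 727 and the median was -0.0756, and with upper-quartile scaling it was 634 and 762 with a median of -0.12. The ZT4 library of number 3 had 984 genes at 0 and 24.6% of its FPKM in 10 genes. Without that library, 1876 genes were called in SD, 519 higher by day and 1357 by night, with a median of -0.205. In LL after LD, 183 of 7404 genes (2.47%) were called, 99 higher by day (1.34%) and 84 by night (1.13%), with an all-gene median of -0.221 that moved to -0.0316 with median-of-ratios scaling, when the split was 179 and 57, and to -0.112 with upper-quartile scaling, at 178 and 79. With the sampling number as a block, 1052 genes were called, 299 higher by day and 753 by night. Leaving out 1 library at a time gave 0 to 570 calls in LL after LD: 0 without CT8, CT16 or CT20 of number 5, 1 without CT8 of number 4, 4 without CT16 of number 4, 7 without CT4 of number 4 and 570 without CT20 of number 4.

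Of the 14 day genes of LL after SD, 6 were also called higher by day in SD, against 5.72% of all genes. A positive difference there was found in 9, against 28.6% of all genes, with a median of 0.72 beside 1.26 in LL. The 6 were the dehydrogenase ostta14g01890 (2.30), the transferase ostta18g01090 (2.74), the threonine dehydratase ostta05g02740 (2.11), the carrier ostta17g02150 (2.08), the PDZ gene ostta04g00130 (1.71) and the formate-tetrahydrofolate ligase ostta18g00940 (0.94). The dehydrogenase lost its call in 6 of 12 SD fits that left out 1 library (ZT4 of number 1 or 2, ZT8 of number 1 or ZT16 of any number), and the other 5 genes kept theirs in all 12. Both night genes were called in SD in the same direction, against 17.5% of all genes called higher by night. They were at -1.92 for the symporter ostta15g01710 and -1.76 for ostta01g04690. Upper-quartile and median-of-ratios scaling left these 8 calls in place.

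In LL after LD, 5 of the 14 day genes were called higher by day, against 1.34% of all genes. A positive difference was found in 12, against 27.2% of all genes, and the median was 0.66. The 5 called were the FAS1 gene ostta13g00230 (1.64), the NADP-binding gene ostta15g00900 (1.62), RCA (1.27), the TrmE/T protein gene ostta10g02780 (1.14) and the formate-tetrahydrofolate ligase ostta18g00940 (0.80). All 5 calls were lost without CT4, CT8 or CT16 of number 4 or CT8, CT16 or CT20 of number 5. Neither night gene was called there, at -0.71 and -0.05, and ostta01g04690 was positive under both other scalings. The formate-tetrahydrofolate ligase was the only one of the 16 called in all 3 regimes.

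**Figure D4:**
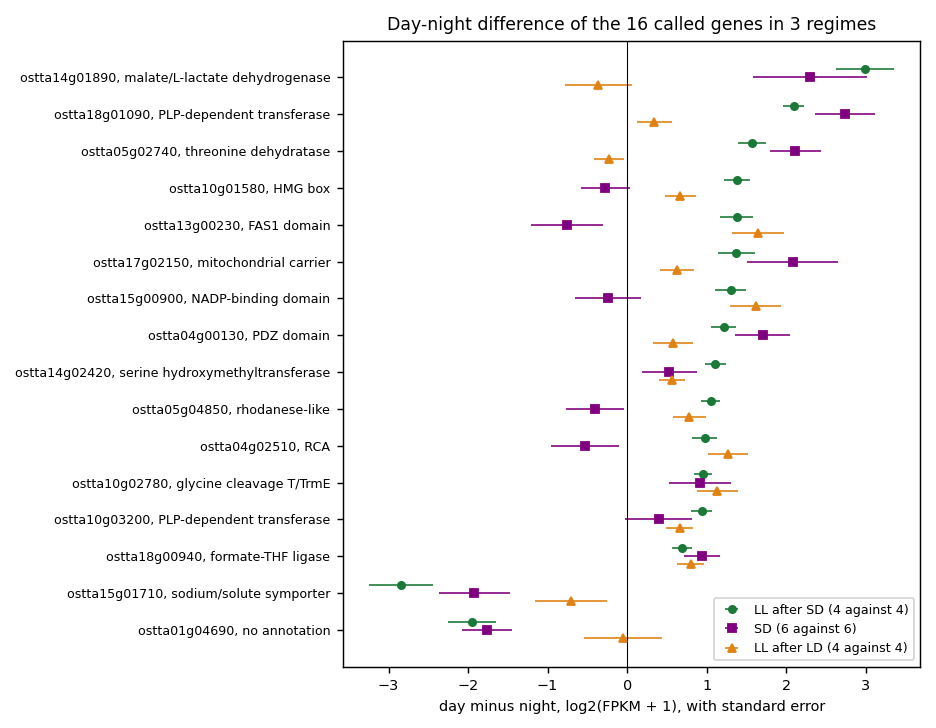
Day minus night difference in log2(FPKM + 1), with standard error from limma, for the 16 called genes in LL after SD (circles), SD (squares) and LL after LD (triangles). The dehydrogenase ostta14g01890 stands at 2.99 in LL after SD, 2.30 in SD and -0.36 in LL after LD, and the FAS1 gene ostta13g00230 at 1.38, -0.76 and 1.64.

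The day minus night difference was compared between LL after SD and LL after LD as an interaction, and limma called 8 of 7435 genes (0.108%). With its sign, that difference was higher after SD in 3 (0.0403%) and higher after LD in 5 (0.0672%). The 3 were all day genes of LL after SD. The dehydrogenase ostta14g01890 was at 48.9, 133, 202 and 198 FPKM by day and 145, 234, 111 and 190 FPKM by night in LL after LD, in the same library order. Those groups overlapped, whereas after SD they were far apart, and the differences of the 2 regimes were 3.36 ± 0.61 apart (adjusted p = 0.043). After LD the highest mean of this gene was 266 FPKM at CT12 and the lowest 78.0 FPKM at CT0. Both hours are outside the comparison, so the overlap does not show that its daily change was absent.

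The transferase ostta18g01090 was at 71.2, 107, 129 and 109 FPKM by day and 70.5, 105, 61.9 and 89.9 FPKM by night after LD, also overlapping, and the regimes were 1.75 ± 0.27 apart (limma, adjusted p = 0.016). The threonine dehydratase ostta05g02740 was at 52.3, 69.8, 79.9 and 84.5 FPKM by day and 75.3, 104, 70.8 and 84.9 FPKM by night after LD, 1.80 ± 0.27 below its difference after SD (limma, adjusted p = 0.016). Both were called in 24 of 25 alternative fits, the exception being that without CT20 of number 4 of LL after SD (adjusted p = 0.057). The dehydrogenase was called in 7 of the 25, and of the fits that left out 1 library only in those without CT20 of number 5 of LL after SD or CT20 of number 4 of LL after LD. The count of 8 became 0 without CT20 of number 4 of LL after SD and 72 without CT20 of number 4 of LL after LD. With the sampling number as a block it was 81. It was 11 without CT4 of number 5 of LL after LD, and 2 to 4 without each of the others.

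Of the 5 genes with the higher day minus night difference after LD, 3 are annotated and average at least 10 FPKM. The nucleoside diphosphate kinase ostta10g02850, which balances nucleotide pools, was at 148, 100.3, 205 and 133 FPKM by day and 33.6, 31.1, 49.7 and 41.6 FPKM by night after LD. After SD it was at 156, 147, 169 and 138 FPKM by day and 94.7, 135, 136 and 133 FPKM by night, so that the wide gap seen after LD was not there (-1.56 ± 0.28, limma, adjusted p = 0.041). A fatty acid desaturase (ostta03g03040, -1.53 ± 0.28) and a sugar nucleotide epimerase-like gene (ostta05g02418, -1.32 ± 0.24) also had a higher day minus night difference after LD (limma, adjusted p = 0.043 and 0.041). In 25 alternative fits the kinase was called in 10, the desaturase in 10 and the epimerase-like gene in 9, with adjusted p up to 0.13, 0.15 and 0.12.

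Between LL after SD and the SD cycle, 614 of 7460 genes (8.23%) had a day-night difference that differed by limma's interaction test. Day minus night, with its sign, was higher in LL in 390 (5.23%) and lower in 224 (3.0%). With median-of-ratios scaling the split was 223 and 358, and with upper-quartile scaling 242 and 299, with the all-gene median going from 0.226 to 0.0539 and 0.102. Without the ZT4 library of number 3 of SD, 803 genes were called. TOC1, a gene of the evening arm of the clock, was at 858 ± 193 FPKM by day and 28.8 ± 25.2 FPKM by night in SD (SD, n = 6) and at 525 ± 32.9 and 521 ± 195 FPKM in LL (SD, n = 4). Its SD libraries were far apart and its LL libraries overlapped, and the interaction was -5.09 ± 0.54 (limma, adjusted p = 1.5e-05). CCA1 was at 390 ± 367 and 279 ± 290 FPKM in SD, overlapping in both regimes at these hours, with an interaction of -0.80 ± 1.15 (limma, adjusted p = 0.73). Its SD means ran from 31.8 FPKM at ZT0 to 1028 FPKM at ZT12, hours that this comparison leaves out. In LL the highest means of TOC1 and CCA1 were at CT12, 737 and 564 FPKM. There number 4 was at 1005 and 772 FPKM and number 5 at 468 and 355 FPKM. In number 5 both genes were highest at CT0 instead, at 630 and 414 FPKM.

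Genes of light harvesting had wide day-night differences in SD and small ones in LL. The chlorophyll a/b-binding protein gene ostta07g02530 ranged from 18388 to 34969 FPKM by day (median 22955) and from 325 to 5183 FPKM by night (median 1722) in SD. In LL after SD it was at 15417, 12116, 11493 and 11341 FPKM by day and 13255, 11901, 9713 and 10173 FPKM by night, so the wide gap of the SD cycle gave way to overlapping groups (-4.07 ± 0.77, limma, adjusted p = 0.0022). A second such gene, ostta03g04550, had an interaction of -3.95 ± 0.74. Over the 24 genes of that list the median was 1.89 in SD, with 13 called higher by day (5.72% of all genes were) and 1 by night, and 0.11 in LL.

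Regulatory genes stood on both sides. The RING-CH zinc finger gene ostta10g00190, a domain of ubiquitin ligases, was at 883 to 1626 FPKM by day and 14.6 to 218 FPKM by night in SD, and at 611, 269, 666 and 281 FPKM by day and 371, 227, 243 and 234 FPKM by night in LL. Its groups were far apart in SD and overlapped in LL (-4.39 ± 0.73, limma, adjusted p = 0.00083). The RWP-RK gene ostta14g01760, of a plant and algal family of transcription factors known for nitrogen responses in land plants and Chlamydomonas, was at 0 to 75.8 FPKM by day and 598 to 1051 FPKM by night in SD, and at 148, 134, 218 and 120 FPKM by day and 117, 138, 150 and 117 FPKM by night in LL. The night peak of SD was not seen in LL (5.11 ± 1.14, limma, adjusted p = 0.0074).

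The Dof zinc finger gene ostta08g01730, also a plant transcription factor family, was at 7.30 to 16.9 FPKM by day and 108 to 628 FPKM by night in SD. In LL it was at 45.9, 17.3, 41.2 and 27.8 FPKM by day and 44.6, 27.1, 46.1 and 24.8 FPKM by night, where number 4 was above number 5 at every hour (4.66 ± 0.63, limma, adjusted p = 0.00013). The glycosyl hydrolase family 13 gene ostta16g00440, of the family of starch-acting amylases, went from 3.28 to 11.5 FPKM by day and 93.2 to 494 FPKM by night in SD to 10.4, 34.8, 24.8 and 39.0 FPKM by day and 10.3, 27.6, 31.7 and 32.5 FPKM by night in LL. That gene's LL groups overlapped (5.12 ± 0.67, limma, adjusted p = 9.7e-05).

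The others with the widest interactions were an FKBP-type isomerase (ostta17g01810, 3.96), a short-chain dehydrogenase (ostta04g04430, 3.46) and an RNA export adapter gene (ostta06g00240, -4.53). The isomerase was listed at 0 in CT16 of number 4 and at 50.5 FPKM in CT16 of number 5, and its call was lost without CT4 number 5, CT8 number 4, CT8 number 5 or CT20 number 4 and with a pseudocount of 0.1 (adjusted p up to 0.085). Among the 14 day genes of LL after SD, 2 had called interactions with SD, the HMG box gene ostta10g01580 (1.66 ± 0.41) and the FAS1 gene ostta13g00230 (2.14 ± 0.60), with differences of -0.27 and -0.76 in SD (limma, adjusted p = 0.015 and 0.033). Of both genes the highest SD mean was at ZT0, an hour outside this comparison, at 5442 and 10191 FPKM.

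**Figure D5:**
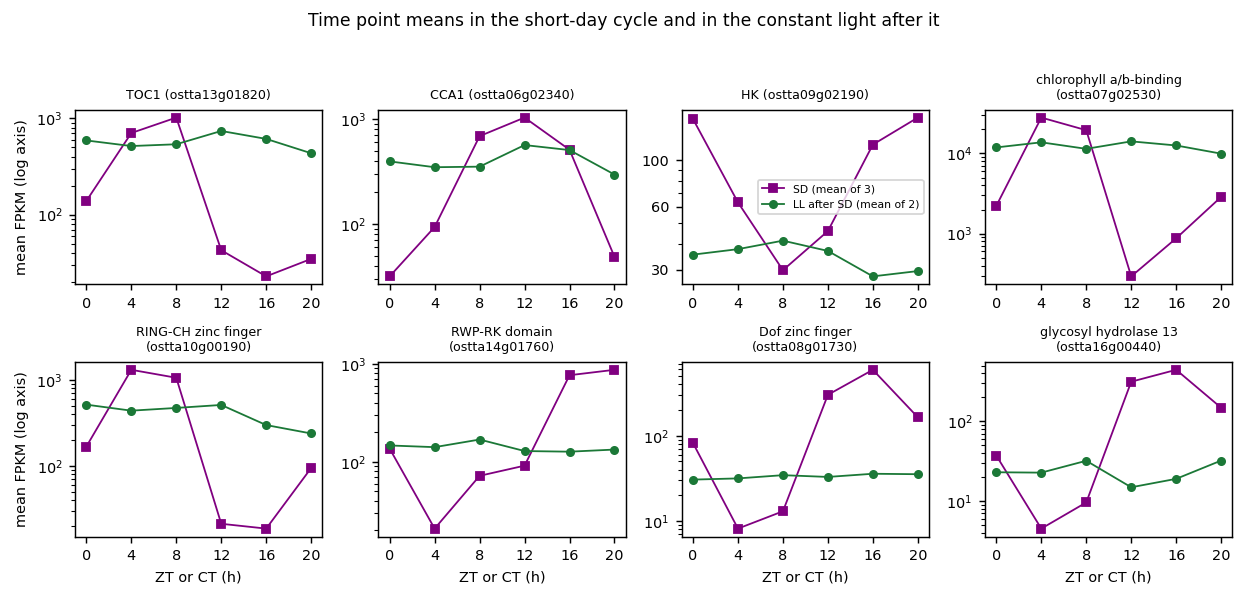
Mean FPKM per time point on a log axis against ZT or CT in h for 8 genes, with squares for SD (mean of 3 libraries) and circles for LL after SD (mean of 2). TOC1 spans 22.9 to 1014 FPKM in SD and 433 FPKM (CT20) to 737 FPKM (CT12) in LL. The chlorophyll a/b-binding, RING-CH, RWP-RK, Dof and glycosyl hydrolase genes are flatter in LL likewise.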

How the data were processed

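Transcripts were sequenced from O. tauri photochemostat cultures. The labels name polyA RNA and a total RNA library kit, with FastQC, HISAT2 and StringTie in the submitters' processing notes (no versions given). The study's methods describe single-end reads mapped to version 3.0 of the genome. The deposited table of 60 libraries gives FPKM per gene as the authors computed them, that is, reads scaled by gene length and library size, with replicates in separate columns. FPKM are not counts, so no count model was used. A second deposited table of FPKM from the authors, with 24 libraries of other regimes, was not used.

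FPKM were taken as log2(FPKM + 1) and fitted with limma 3.58.1 in R 4.3.3 (group means, empirical Bayes with a trend), over genes with a mean of at least 1 FPKM in the libraries of the fit. P-values are two-sided, adjusted by Benjamini-Hochberg over those genes, and called at 0.05. The fits were for day against night in LL after SD (4 against 4 libraries), SD (6 against 6) and LL after LD (4 against 4), their interactions, and number 5 against number 4. Clock genes also had an exact permutation test. Tables were handled in Python 3.11.15 with pandas 2.3.3. On simulated data for the main comparison (7409 genes), 50 genes each were changed by 0.5, 1, 1.5 and 2 on the log2 scale. All of these averaged at least 10 FPKM. Of each 50, 13, 41, 46 and 47 were called, with 4 of 7209 unchanged genes. Far more genes were called there than in the real comparison, which loosens the Benjamini-Hochberg cut-off. Those shares are therefore not the detection rate of the real comparison. The simulated libraries were drawn independently, so deviations shared by libraries of the same number or hour were not part of them.

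The comparison, the 24 gene lists and the tests were chosen with earlier results of these data known. Genes were named by rule: in each direction the 15 called genes of largest difference with an annotation, at least 10 FPKM and groups that do not overlap, or, where under 5 were called, the 10 of smallest p. The rule also named the clock and photoreceptor genes, up to 4 called or 2 uncalled genes with a symbol from each list, and the 5 of largest interaction in each direction, with the same annotation and level. Exceptions are marked in the text. Gene names and annotations came from the study's tables, and gene order on chromosome 10 from RefSeq. Alternatives were the pseudocount (0.1, 10), the filter (none, 10 FPKM), upper-quartile and median-of-ratios scaling, no trend, each library left out, a replicate block, time point means, other sets of libraries and a threshold of 0.1. Promoter motifs were not analysed here. Number and depth of libraries limit precision, and FPKM hold no exact depth.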

Additional observations from a re-analysis of the deposited data

Results flagged for a closer look

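In 134 groups of 4 libraries, over 67 named genes, 6 held 1 library far from the other 3 by Dixon's criterion (0.829 for 4 samples), and chance gives about 1 group in 20. All 6 libraries were of number 4. CT4 was low for the HMG box gene ostta10g01580 (1188 FPKM) and the beta-lactamase-like gene ostta03g01000 (3.90 FPKM). CT20 was low for ostta04g00290 (46.2 FPKM). CT16 was low for ostta16g00440 (10.3 FPKM) and ostta10g02850 (94.7 FPKM) and high for ostta10g00190 (371 FPKM).

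The day-night difference of LL after SD differed from that of SD in 614 genes by limma's interaction test. Among named genes the value of LL minus that of SD was positive for ostta10g01580 (1.66), ostta13g00230 (2.14), HK (2.16), HDR (0.92), GALM (1.32) and YeiP (1.27). So it was for ostta16g00440 (5.12), ostta14g01760 (5.11), ostta08g01730 (4.66), ostta17g01810 (3.96), ostta04g04430 (3.46) and ostta05g02418 (1.57). Negative values were those of the histone gene ostta05g03770 (-1.83), TOC1 (-5.09), the CPP gene ostta09g04220 (-1.57), PsbR (-1.37) and ORC2 (-1.21). Others were ostta06g00240 (-4.53), ostta10g00190 (-4.39), ostta07g02530 (-4.07) and ostta03g04550 (-3.95). The sign does not say where the gap was wider. The difference of ostta16g00440 was 0.07 in LL and -5.06 in SD, and that of ostta05g03770 was -1.20 and 0.63.

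From that of LL after LD the day-night difference of LL after SD differed in 8 genes. These included ostta14g01890 (3.36), ostta18g01090 (1.75), ostta05g02740 (1.80), ostta10g02850 (-1.56), ostta03g03040 (-1.53) and ostta05g02418 (-1.32).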

How the results depend on the processing

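In LL after SD all 16 called genes kept their direction in 24 alternatives. The count of 16 became 10 with no filter on low values, 10 without the trend, 25 with the replicate block, 9 with a mean for each time point, 9 in the fit of all 60 libraries, 1 without the CT8 libraries (fewer samples) and 31 at a threshold of 0.1. Leaving out 1 library gave 9 to 23. Number 5 alone gave 52 and number 4 alone 97, in fits of 2 against 2 chosen after seeing the data, as was leaving out CT4 and CT16 of number 4.

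The count of 5 between numbers became 3 and 10 with pseudocounts of 0.1 and 10, and 0 with no filter or no trend (0 to 19 with 1 library left out). The 1730 of SD became 2888 with time point means (1190 to 2126), and the 183 of LL after LD became 0 with no filter, 103 without the trend and 1052 with the replicate block (0 to 570). The 614 that differed between LL after SD and SD became 1241 with time point means (436 to 803). The 8 that differed between the LL regimes became 3 with median-of-ratios scaling, 3 without the trend, 81 with the block and 19 with time point means (0 to 72). The cause was not tested. Whether the numbers pair the libraries is not settled: the study's methods describe successive days but the labels give only the number, and same-numbered libraries deviated together with r over 0.1 in 4 of 6 pairs of hours (-0.032 to 0.369). The fits without and with the block are therefore both given.

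Among the named genes that were not called, 15 changed sign in at least 1 alternative. With libraries or 1 whole number left out, the difference went from -0.122 to 0.4119 in CLC, -0.0816 to 0.4574 in CRY3, -0.007 to 0.1273 in DXS, -0.004 to 0.2934 in COPD, -0.1673 to 0.0572 in UVR2, -0.395 to 0.187 in CCA1, -0.0541 to 0.3604 in HDR, -1.2835 to 0.0654 in UTP12 and -0.336 to 0.4872 in TOC1. It went from -0.3392 to 0.1445 in ostta06g00240, -0.3273 to 0.1249 in ostta08g01730, -0.0367 to 0.4753 in ostta09g04220, -0.0024 to 0.443 in ostta14g01760, -0.3053 to 0.4508 in ostta16g00440 and -0.565 to 0.2055 in ostta20g00800. Without the CT8 libraries it was -0.0121 in CRY3, -0.0681 in DXS, 0.2018 in ostta06g00240 and -0.2671 in ostta16g00440. Without CT4 and CT16 of number 4 it was 0.0482 in UVR2 and 0.1337 in CCA1, and UVR2 stood at 0.0227 with upper-quartile and 0.0438 with median-of-ratios scaling. With 2 sampling numbers, small differences are not resolved, and FPKM give no count-based precision.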

Other observations

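On the second principal component of the 12 libraries of LL after SD, CT0, CT4 and CT8 of number 4 lay at -17.72, -20.19 and -19.09 and CT16 of number 4 at 21.33, while the 6 libraries of number 5 lay between -0.95 and 9.03. APL (ostta07g03440), a subunit of the enzyme that makes the precursor of starch, was at 786 FPKM in the CT12 library of number 4 and 254 FPKM in that of number 5. Its day libraries were at 566, 284, 726 and 377 FPKM and its night libraries at 329, 250, 224 and 238 FPKM. These groups overlapped, and its difference of 0.83 ± 0.25 was not called (limma, adjusted p = 0.26).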
